A study of Mus musculus with 6 samples.

Results

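The genes described here build the contacts between neighbouring endothelial cells: Cdh5, Cldn5, Cldn15, Ocln, Tjp1, Esam, F11r, Jam2 and Jam3. They were chosen by gene symbol, and all 9 were present among the 55401 genes of the count table and among the 18438 genes that passed the filter on low counts. None of the 9 passed the threshold between the mutant and control libraries, and Jam2 came closest to it.

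Bulk RNA-seq was done on kidney endothelial cells sorted as CD31+CD45- from 6 mice, with 1 library per mouse. All mice carried homozygous floxed Rbpj alleles (Rbpjf/f) and all received tamoxifen as 5 intraperitoneal doses of 1.5 mg at 8 weeks of age, with harvest 12 weeks after induction and an age of 21 weeks on the labels. The 3 RbpjDEC mice also carried 1 copy of Cdh5CreERT2, an inducible Cre recombinase under the Cdh5 promoter, whereas the 3 CTRL mice were their Cre-negative littermates (Cre -/-). Rbpj encodes the DNA-binding effector of canonical Notch signaling, and the comparison asks what its deletion in adult endothelium did to the RNA of these cells. The Cre driver is active in endothelium of all organs, lymphatic vessels included, and control mice without Cre do not account for effects of the recombinase itself.

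Endothelial junctions combine adherens junctions, in which VE-cadherin (Cdh5) binds VE-cadherin on the neighbouring cell and catenins inside it, with tight junctions, in which claudins and occludin seal the cleft and ZO-1 (Tjp1) ties them to actin. Immunoglobulin-type molecules of the junctional adhesion molecule family (F11r, Jam2, Jam3) and Esam lie at the same contacts and also take part in leukocyte passage. In the kidney, tubule epithelium builds far more elaborate tight junctions than most of the vessel wall, with its own claudins and occludin.

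The libraries held between 39649171 and 47726850 counts, so 3 counts corresponded to between 0.0634 and 0.0749 CPM, which are counts brought to a common library size with scaling by the trimmed mean of M values (TMM). CTRL 1 listed 33764 genes with at least 1 count, against 25629 to 26785 in the other libraries. Summed CPM of 12 pan-endothelial genes was 21180 to 23250 in CTRL and 19230 to 19600 in RbpjDEC, without overlap, and 8 of the 12 had a log2 fold change below 0 with 0 called. Kdr and Flt1, receptors for VEGF, were the most abundant of them, at 3804 CPM or more in every library. The 12 did not move together, with log2 fold changes from -0.41 for Eng to 0.22 for Egfl7. In bulk RNA, fewer cells of a type and less RNA of these genes per cell cannot be told apart, and the cause was not tested. Rbpj itself was at 28.1, 29.7 and 29.8 CPM in CTRL and 28.9, 26.1 and 29.6 in RbpjDEC. Those counts cover the whole gene rather than the floxed stretch, so they do not check the deletion.

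RNA levels per kilobase of exon (RPKM, from CPM and the merged exon length of each gene) put Cdh5 first in both groups. Its level was 433.7 ± 32.1 RPKM in CTRL and 379.3 ± 34.7 in RbpjDEC (SD, n = 3), which was 48.3% and 45.9% of the summed RPKM of the 9 genes. Esam and Tjp1 followed at 131.2 ± 5.56 and 130.3 ± 10.2 RPKM in CTRL, and the libraries of these neighbours overlapped in both groups. F11r at 56.6 ± 5.12 and Cldn15 at 55.8 ± 1.26 RPKM overlapped as well, and their order was the opposite in RbpjDEC, with 51.1 ± 4.23 for F11r and 52.5 ± 1.37 for Cldn15. Jam3 at 38.6 ± 1.48, Jam2 at 30.8 ± 0.529 and Cldn5 at 21.2 ± 3.49 RPKM stood apart from each other in CTRL. In RbpjDEC, Jam3 at 41.2 ± 8.43 overlapped F11r, and Jam2 at 24.7 ± 4.02 overlapped Cldn5 at 17.4 ± 5.64, although Jam2 lay above Cldn5 within each of the 3 libraries. Ocln was far below all others, at 0.343 ± 0.0519 RPKM in CTRL and 0.194 ± 0.114 in RbpjDEC. Among these cells' claudins per kilobase, Cldn15 therefore stood above Cldn5, the claudin best known from the blood-brain barrier.

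**Figure D1:**
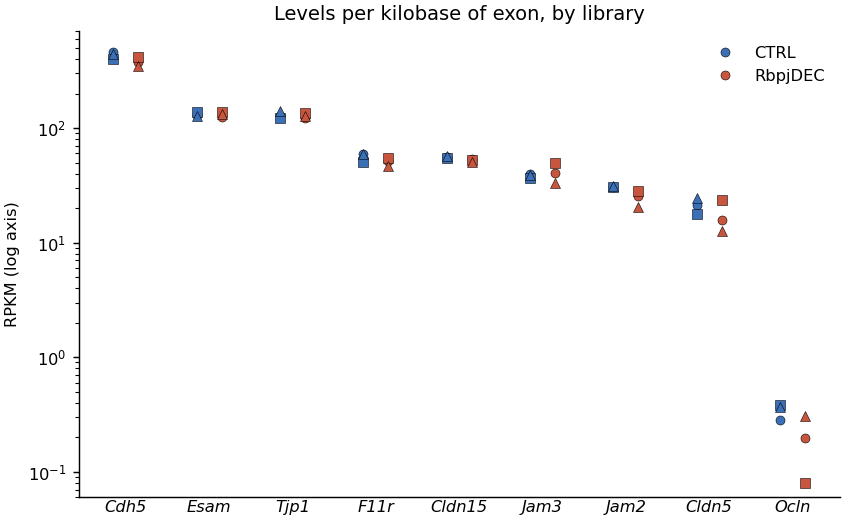
RPKM of the 9 junction genes on a log axis, with 1 point per library (circle, square and triangle for replicates 1, 2 and 3). Cdh5 lies highest at 379.3 to 433.7 RPKM as group means, 7 genes lie between 17.4 and 131.8, and Ocln lies below 0.4 in every library.

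Genotypes were compared in edgeR's quasi-likelihood framework over all 18438 genes, and a gene was called at a Benjamini-Hochberg adjusted p under 0.05. Fold changes are RbpjDEC minus CTRL on the log2 scale. Of the 9 genes, 0 were called lower and 0 higher, where 0.559% of all tested genes were called lower and 0.575% higher. DESeq2 and limma voom also called 0 of the 9. At an unadjusted p under 0.05, 1 of the 9 was lower and 0 higher, beside 8.62% and 8.88% of all tested genes. In 2 of the 9, every RbpjDEC library lay below every CTRL library, and in 0 every one lay above, whereas 11.6% and 11.4% of all tested genes separated in these directions. The median log2 fold change was -0.15 over the 9 genes and 0.01 over all tested genes, with 7 of the 9 below 0. When libraries were scaled to the pan-endothelial genes, the medians were -0.03 and 0.12, with 5 of the 9 below 0. Without 1 library each, the median of the 9 ran from -0.23 (without CTRL 2) to -0.09 (without RbpjDEC 3). With 3 mice against 3, an exact two-sided permutation test of a single gene cannot give a p below 0.1.

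**Figure D2:**
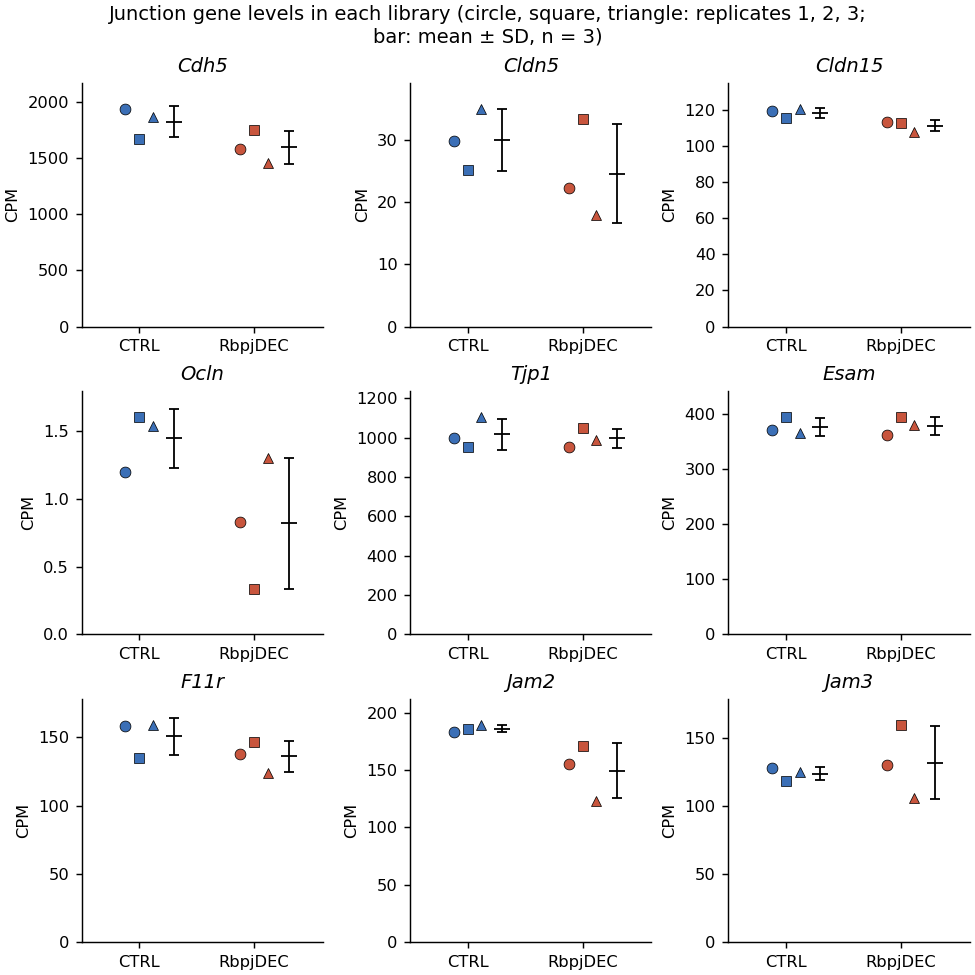
CPM of each junction gene in the 3 CTRL and 3 RbpjDEC libraries, each axis starting at 0, with points for the libraries and a bar for the mean ± SD (n = 3). The groups stand apart in Cldn15 and Jam2, with all RbpjDEC points below all CTRL points, and overlap in the other 7 genes.

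Cdh5 (ENSMUSG00000031871.9, chr8:104101625-104144511 on the plus strand of GRCm38, 13 merged exon blocks) is the adhesive cadherin of the endothelial adherens junction. Its CPM was 1934, 1672 and 1863 in CTRL and 1580, 1747 and 1456 in RbpjDEC. RbpjDEC 2 lay above CTRL 2, so the groups overlapped, while the other 2 RbpjDEC libraries lay below all CTRL libraries. Its log2 fold change was -0.19 (SE 0.0889, 95% interval -0.39 to 0.001, edgeR quasi-likelihood, Benjamini-Hochberg adjusted p = 0.286), a ratio of 0.87. The interval thus reached from 0.76 times the CTRL level to the CTRL level itself. With libraries scaled to the pan-endothelial genes, the log2 fold change of Cdh5 was -0.08 (adjusted p = 0.684 in the edgeR test). Without 1 library each, it ran from -0.26 to -0.13.

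Reads of Cdh5 need a further remark, since the Cre transgene is a PAC, a large genomic clone of the Cdh5 locus, and only RbpjDEC mice carry it. Gene-level counts do not separate transcripts of the clone from those of the endogenous gene, and the part of the clone in the Cdh5 value was not tested. The annotated genes within 300 kb of Cdh5 were therefore read beside it. Of these, Cklf was at 6.39 to 6.63 CPM in CTRL and 8.30 to 9.28 in RbpjDEC, with no overlap, and its log2 fold change of 0.44 did not pass the threshold (edgeR quasi-likelihood, Benjamini-Hochberg adjusted p = 0.132). Cmtm3 was at 57.4 to 62.1 CPM in CTRL and 66.0 to 86.0 in RbpjDEC (adjusted p = 0.178 in the same edgeR test), again with no overlap. Tk2, Cmtm4 and Dync1li2 had log2 fold changes of 0.15, 0.02 and -0.06, and their groups overlapped. The antisense RNA K230015D01Rik lay at 0.900 to 1.02 CPM in CTRL and 0.268 to 0.574 in RbpjDEC (adjusted p = 0.209 in the same edgeR test). Gm29682, annotated on the opposite strand over the start of Cdh5, had at most 2 counts in any library.

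Cldn5 and Cldn15 encode claudins, membrane proteins with 4 passes whose outer loops form the seal or pores of the tight junction. Cldn5 (ENSMUSG00000041378.2, chr16:18776847-18778262, plus strand, 1 exon block) was at 30.0, 25.2 and 35.0 CPM in CTRL and 22.3, 33.5 and 18.02 in RbpjDEC. RbpjDEC 2 reached the CTRL range, and the other 2 RbpjDEC libraries lay below it. For Cldn5 the log2 fold change was -0.29 (SE 0.244, 95% interval -0.88 to 0.30, edgeR quasi-likelihood, Benjamini-Hochberg adjusted p = 0.594). The interval spans ratios of 0.54 to 1.23, so these libraries exclude neither a fall to 0.54 times the CTRL level nor a small rise. Without RbpjDEC 2 the log2 fold change was -0.57, and without RbpjDEC 3 it was -0.11.

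Cldn15 (ENSMUSG00000001739.14, chr5:136966616-136975858, plus strand, 7 exon blocks) forms cation pores in epithelia. It was at 119.4, 115.5 and 120.6 CPM in CTRL and 113.5, 112.7 and 108.1 in RbpjDEC. All 3 RbpjDEC libraries lay below all CTRL libraries, by a small margin. Cldn15 had a log2 fold change of -0.09 (SE 0.0642, 95% interval -0.23 to 0.05, edgeR quasi-likelihood, Benjamini-Hochberg adjusted p = 0.506) with TMM scaling and turned to 0.03 when libraries were scaled to the pan-endothelial genes. Its SE was smaller than those of Cldn5, Ocln and Tjp1, and the interval spans ratios between 0.85 and 1.04.

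Ocln (ENSMUSG00000021638.12, chr13:100496507-100552718, minus strand) encodes occludin, a further membrane protein of tight junctions that tubule epithelium expresses strongly. It had 48, 76 and 65 counts in the CTRL libraries and 37, 14 and 52 in the RbpjDEC libraries, or 1.20, 1.61 and 1.54 CPM against 0.825, 0.334 and 1.30. RbpjDEC 2 was lowest, and RbpjDEC 3 lay within the CTRL range. The log2 fold change of -0.82 was the most negative of the 9 genes, yet its interval from -1.77 to 0.12 was also the widest (SE 0.431, edgeR quasi-likelihood, Benjamini-Hochberg adjusted p = 0.349). Without RbpjDEC 3 the log2 fold change was -1.31, and without RbpjDEC 2 it was -0.45.

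Tubule RNA varied between the sorted samples in a pattern that shares features with Ocln. The summed CPM of 18 tubule marker genes was 501.8, 339.7 and 358.8 in CTRL and 190.0, 145.1 and 505.4 in RbpjDEC, and 12 of the 18 had a log2 fold change below 0 with none at 0 in all libraries. Hsd11b2, a steroid enzyme of the distal nephron, was the 1 called lower, at a log2 fold change of -2.09 (edgeR quasi-likelihood, Benjamini-Hochberg adjusted p = 0.0121), and is named after its values were seen. Over all tested genes, 0.559% were called lower. The 12 epithelial claudins summed to 12.6, 8.83 and 11.8 CPM in CTRL and 4.62, 4.39 and 12.4 in RbpjDEC, with Cldn14 and Cldn18 at 0 throughout. As for Ocln, both sums were lowest in RbpjDEC 2, second lowest in RbpjDEC 1 and in the CTRL range or above it in RbpjDEC 3. The tubule sum joins opposite patterns, which were separated after the values were seen. The 6 proximal tubule genes (Lrp2, Cubn, Slc34a1, Slc5a2, Miox and Kap), which take up protein, phosphate, glucose and other solutes or mark that segment, summed to 35.6, 65.4 and 105.8 CPM in CTRL and 73.6, 83.9 and 313.4 in RbpjDEC. The other 12 summed to 466.1, 274.3 and 253.0 CPM in CTRL and 116.4, 61.2 and 192.0 in RbpjDEC, all below CTRL. Lrp2, the uptake receptor megalin, reached 129.2 CPM in RbpjDEC 3, where it was the most abundant tubule gene. Likewise the epithelial claudins without Cldn2, a proximal claudin, summed to 6.86 CPM in RbpjDEC 3, below the 7.75 to 12.2 in CTRL. In RbpjDEC 3, Ocln thus lay within its CTRL range, the proximal sum above its own and the sum of the other tubule genes below its own. The 2 tubule genes most abundant over the 6 libraries, Slc12a3 and Slc12a1, which transport salt in the distal tubule and thick ascending limb, were at 62.5 to 139.9 and 64.0 to 133.9 CPM in CTRL and at 11.5 to 64.4 and 17.2 to 52.3 in RbpjDEC. The part of tubule RNA in the Ocln value was not tested. Of the other claudins, Cldn12 was at 12.5 to 14.6 CPM in CTRL and 11.3 to 14.2 in RbpjDEC, Cldn8 at 2.25 to 4.46 and 0.223 to 1.35, Cldn10 at 1.99 to 3.53 and 0.954 to 2.47, and Cldn2 at 0.399 to 2.16 and 0.959 to 5.52, whereas the rest of the claudins read here were at 1.90 CPM or below in every library.

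**Figure D3:**
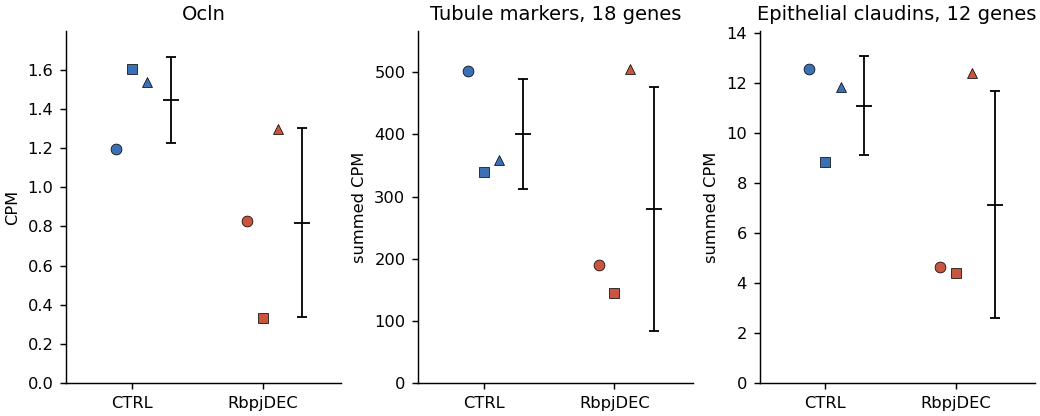
CPM of Ocln (left), summed CPM of 18 tubule marker genes (centre) and summed CPM of 12 epithelial claudins (right) in each library, with mean ± SD (n = 3 per group) and axes starting at 0. RbpjDEC 2 (square) is lowest in all 3 panels, and RbpjDEC 3 (triangle) lies near the CTRL libraries at 1.30, 505.4 and 12.4.

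Tjp1 (ENSMUSG00000030516.14, chr7:65296165-65527781, minus strand, 31 exon blocks) encodes ZO-1, the scaffold that links tight junction proteins to actin. Its CPM was 996, 951 and 1106 in CTRL and 953, 1048 and 989 in RbpjDEC, values that interleave. Its log2 fold change was -0.03 (SE 0.0793, 95% interval -0.20 to 0.14, edgeR quasi-likelihood, Benjamini-Hochberg adjusted p = 0.880) with TMM scaling, 0.01 with library size alone and 0.09 with pan-endothelial scaling. It was 0.03 without CTRL 3 and 0.001 without RbpjDEC 1, so no direction can be given.

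Esam (ENSMUSG00000001946.14, chr9:37528078-37538319, plus strand, 10 exon blocks) is an immunoglobulin-type adhesion molecule of endothelium and platelets. It was at 369.9, 394.1 and 364.1 CPM in CTRL and 361.0, 393.0 and 379.3 in RbpjDEC. The groups interleave completely. The log2 fold change was 0.01 (SE 0.0691, edgeR quasi-likelihood, Benjamini-Hochberg adjusted p = 0.973), with a 95% interval from -0.14 to 0.16, and it was between -0.01 and -0.02 without CTRL 1, CTRL 3 or RbpjDEC 2. Platelet genes, named here since Esam is also a platelet protein, summed to between 4.90 and 9.90 CPM in CTRL and 5.70 and 7.34 in RbpjDEC, far under Esam, with Itga2b and Ppbp most abundant and Treml1 at 0.

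The 3 junctional adhesion molecules bind molecules of their own family and leukocyte integrins across cell contacts. F11r (ENSMUSG00000038235.4, chr1:171437535-171464603, plus strand), which encodes JAM-A, was at 158.1, 135.1 and 159.3 CPM in CTRL and 137.8, 146.3 and 124.0 in RbpjDEC. CTRL 2 lay among the RbpjDEC libraries. F11r had a log2 fold change of -0.15 (SE 0.0859, 95% interval -0.34 to 0.04, edgeR quasi-likelihood, Benjamini-Hochberg adjusted p = 0.398) and -0.03 with pan-endothelial scaling. Without CTRL 2 it was -0.23, and without RbpjDEC 3 it was -0.09.

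Rbpj binds DNA at a core of TGGGAA, and the promoters of the junction genes were searched for these letters on both strands in windows of 300 bases around the annotated starts (RefSeq, GRCm38.p6). Of the 9 genes, 5 were matched with 6 windows, namely Cldn15, Cldn5, F11r, Ocln and Tjp1, and the others are Cdh5, Esam, Jam2 and Jam3. The motif stood in 1 of the 6 windows, that of F11r, at position 285 of 300 and on the minus strand, whereas 25.6% of 32851 promoters hold it. The F11r window (chr1:171437311-171437610, plus strand) is shown because it holds the match, in capitals, and that of Cldn5 (chr16:18776597-18776896, plus strand) as the promoter of the endothelial claudin without one. A match in such a window is no evidence of binding, and F11r did not pass the threshold.
F11r: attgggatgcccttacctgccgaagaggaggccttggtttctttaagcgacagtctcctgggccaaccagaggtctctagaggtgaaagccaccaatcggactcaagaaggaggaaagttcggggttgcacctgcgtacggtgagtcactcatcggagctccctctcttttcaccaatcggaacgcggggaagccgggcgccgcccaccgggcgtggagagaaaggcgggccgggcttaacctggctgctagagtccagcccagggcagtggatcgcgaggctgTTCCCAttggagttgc
Cldn5: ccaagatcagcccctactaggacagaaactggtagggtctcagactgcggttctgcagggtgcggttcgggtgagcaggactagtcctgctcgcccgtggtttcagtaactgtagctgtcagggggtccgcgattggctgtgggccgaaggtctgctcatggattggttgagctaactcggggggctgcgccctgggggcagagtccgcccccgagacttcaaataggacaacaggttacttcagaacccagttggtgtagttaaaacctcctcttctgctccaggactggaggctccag

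Jam2 (ENSMUSG00000053062.16, chr16:84774123-84825928, plus strand, 11 exon blocks) encodes JAM-B, a receptor for JAM-C and for an integrin of lymphocytes. Its CPM was 183.4, 185.5 and 189.7 in CTRL and 155.0, 170.6 and 123.0 in RbpjDEC. The CTRL libraries lay close together, and all 3 RbpjDEC libraries lay below them, RbpjDEC 3 the farthest. The log2 fold change was -0.32 (SE 0.104, 95% interval -0.55 to -0.09), a ratio of 0.80 with bounds of 0.69 and 0.94. Its p of 0.0113 in edgeR's quasi-likelihood test placed it at rank 1365 of 18438 genes and became 0.153 after Benjamini-Hochberg adjustment, above the threshold of 0.05. When genes of low count were kept in the fit, the adjusted p of Jam2 in edgeR was 0.00490 at a log2 fold change of -0.31. That fit covered 38324 genes, gave Jam2 an SE of 0.0784 and called 1.88% of its genes lower and 1.87% higher. What moved the adjusted p was not tested. Across all 15 alternatives the adjusted p ran from 0.00490 to 0.363, and the log2 fold change stayed below 0, between -0.42 and -0.19. The value nearest to 0 was the one without RbpjDEC 3.

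Jam3 (ENSMUSG00000031990.15, chr9:27097384-27155421, minus strand, 11 exon blocks) encodes JAM-C, the binding partner of JAM-B. It was at 127.6, 118.4 and 124.7 CPM in CTRL and 129.8, 159.7 and 105.9 in RbpjDEC. RbpjDEC held both the highest and the lowest of the 6 values. Jam3 had a log2 fold change of 0.09 (SE 0.129, 95% interval -0.20 to 0.39, edgeR quasi-likelihood, Benjamini-Hochberg adjusted p = 0.752) and turned to -0.07 without RbpjDEC 2. Annotated genes overlap Jam3 on the opposite strand and lie within Tjp1 and Jam2, and the strand setting of the counting is not given in the sources used here.

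**Figure D4:**
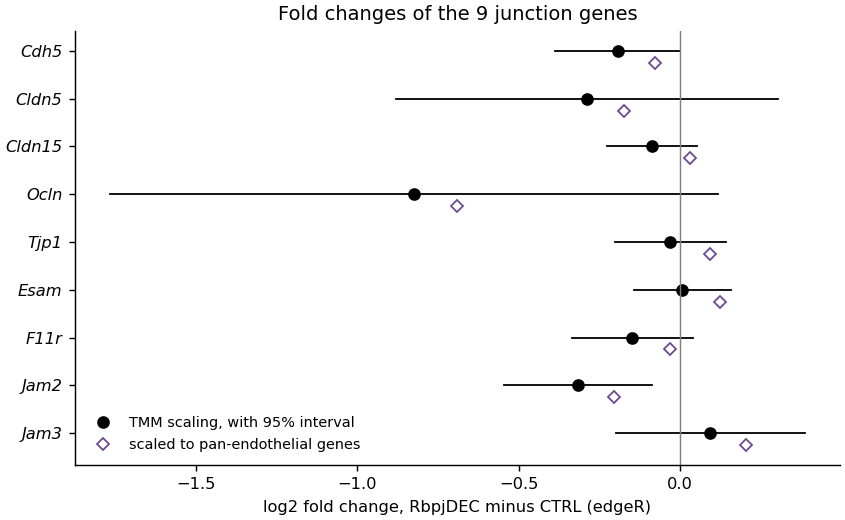
Log2 fold change (RbpjDEC minus CTRL) of each junction gene from edgeR with its 95% interval (filled circles) and the same value when libraries are scaled to 12 pan-endothelial genes (open diamonds). With TMM scaling 7 of 9 circles lie below 0 and only the interval of Jam2, from -0.55 to -0.09, excludes 0, while each diamond lies to the right of its circle.

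RbpjDEC libraries did not depart from CTRL as a block. Measured from the CTRL mean in log2 CPM, 8 of the 9 genes were below it in RbpjDEC 1, 5 in RbpjDEC 2 and 8 in RbpjDEC 3, with median deviations of -0.13, -0.04 and -0.22. RbpjDEC 3 held the lowest value of all 6 libraries for Cdh5, Cldn5, Cldn15, F11r, Jam2 and Jam3. Below the CTRL mean lay 4 of the 9 genes in CTRL 1, 7 in CTRL 2 and 1 in CTRL 3. The CTRL libraries had medians of 0.01, -0.06 and 0.03. In the same libraries the 12 pan-endothelial genes had median deviations of -0.10, -0.09 and -0.22 in RbpjDEC, and all tested genes 0.01, 0.01 and 0.02. When each junction gene was expressed relative to the mean log2 CPM of the pan-endothelial genes, the groups overlapped in all 9, where 4.6% of all tested genes lay below and 20.2% above CTRL in every RbpjDEC library on that scale. For Jam2 the overlap was slight, with RbpjDEC 2 at -2.654 and CTRL 3 at -2.655, and a difference of -0.21 between the group means remained, while that of Cldn15 was 0.03.

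Ratios between the junction genes give values that need no scaling between libraries. Of the 36 pairs, 7 had a log2 ratio without overlap between groups, or 19.4%, against 21.6% of all pairs of tested genes, so the share is close to the background. Jam2 took part in 4 of the 7 and Jam3 in 3. The log2 ratio of Jam2 to Jam3, the genes of a binding pair, was 0.52, 0.65 and 0.61 in CTRL and 0.26, 0.10 and 0.22 in RbpjDEC. That of Cdh5 to Tjp1 was 0.96, 0.81 and 0.75 in CTRL and 0.73, 0.74 and 0.56 in RbpjDEC.

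Profiles over the 6 libraries were compared among 8788 genes of at least 10 mean CPM as the root mean square difference of centred log2 CPM, a description with no test. Nearest to Cdh5 were Mmrn2, Gnai2, Reep3, Ly6e and Chst11, with differences between 0.0140 and 0.0225. Nearest to Jam2 were Armc10, Nrp1, Bcam, Gltp and Tbcb, with differences between 0.0341 and 0.0558. Among the junction genes themselves, Cdh5 and F11r were the closest pair at 0.0381, and Ocln was farthest from any other at 0.712.

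The partners of these 9 genes were read from 4 further lists, which hold 75 genes, 71 of them tested. Of the 71, 1 was called lower and 0 higher in edgeR, where 0.559% and 0.575% of all tested genes were. A log2 fold change below 0 was found in 56 (median -0.17), against 9019 of 18438 over all tested genes. In 23 every RbpjDEC library lay below every CTRL library and in 1 every one lay above, beside 11.6% and 11.4% of all tested genes. At an unadjusted p under 0.05, 24 were lower and 4 higher, where 8.62% and 8.88% of all tested genes were. With pan-endothelial scaling, which moved the median of all genes to 0.12, 41 of the 71 were below 0 with a median of -0.05 and 0 were called, against 5571 of 18438 below 0 over all tested genes. Pecam1 and Erg are among both the 71 and the genes of that scaling. DESeq2 called 13, all lower (Actn1, Heg1, Rhoa, Rac1, Rdx, Ezr, Vcl, Ctnna1, Cdh13, Ptprb, Marveld1, Ceacam1 and Nrp1), where it called 2.77% of all tested genes lower and 2.35% higher. Limma voom called 0, where it called 0.407% lower and 0.39% higher. The single call depended on the libraries. Without CTRL 1, CTRL 3, RbpjDEC 1 or RbpjDEC 2, 0 of the partners were called. Those fits called only 54, 24, 21 and 48 genes in all. Without CTRL 2, 7 partners were called, and without RbpjDEC 3, 6 were, in fits that called 700 and 521 genes in all.

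Among adherens junction partners, 11 of 14 lay below 0, and the smallest p belonged to Ctnna1, Cdh13 and Nectin3. Ctnna1 encodes alpha-catenin, which joins the cadherin complex to actin, and was at 672.9, 631.6 and 666.7 CPM in CTRL and 567.7, 539.2 and 532.0 in RbpjDEC. The groups did not overlap, and the log2 fold change of -0.27 missed the threshold (edgeR quasi-likelihood, Benjamini-Hochberg adjusted p = 0.0819). Cdh13, a cadherin without a cytoplasmic tail, was at 4.92 to 6.63 CPM in CTRL and 2.67 to 4.36 in RbpjDEC (log2 fold change -0.81). Nectin3 had a log2 fold change of -0.24. Summed CPM of the 14 genes was 7519 to 8318 in CTRL and 6756 to 7161 in RbpjDEC. The sum was mostly Ptprb, at 4807 to 5488 CPM in CTRL and 4253 to 4657 in RbpjDEC (log2 fold change -0.25).

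Of the 19 tested tight junction partners, 17 lay below 0, and those with the smallest p were Marveld1, Magi1 and Tjp3. Marveld1, a membrane protein with a domain shared with occludin, was at 86.1, 93.4 and 94.9 CPM in CTRL and 77.8, 71.0 and 72.7 in RbpjDEC. Its log2 fold change of -0.31 was short of the threshold (adjusted p = 0.0626 in the same edgeR test). Magi1, a scaffold that binds at VE-cadherin contacts, went the other way, with 46.1 to 50.0 CPM in CTRL and 54.7 to 61.4 in RbpjDEC (log2 fold change 0.23). Tjp3, the epithelial member of the ZO family, was at 0.718 to 1.55 CPM in CTRL and 0.0223 to 0.574 in RbpjDEC, the lowest value in RbpjDEC 1. In the same libraries all 12 tubule genes outside the proximal segment had a log2 fold change below 0, and all 6 proximal genes lay above 0. The part of tubule RNA in the values of these partners was not tested.

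Other contact receptors of endothelium lay below 0 in 7 of 8 cases. Ceacam1 was at 92.7 to 96.8 CPM in CTRL and 69.9 to 84.9 in RbpjDEC, and its log2 fold change was -0.34 (edgeR quasi-likelihood, Benjamini-Hochberg adjusted p = 0.0738). Nrp1, a co-receptor for VEGF and semaphorins that was also near Jam2 in profile, was at 2310, 2369 and 2523 CPM in CTRL and 1905, 2112 and 1633 in RbpjDEC. Cd99l2, which takes part in leukocyte passage, had a log2 fold change of -0.20. In edgeR 0 of these 8 genes were called, while DESeq2 called Ceacam1 (adjusted p = 0.0151) and Nrp1 (adjusted p = 0.0148).

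Junction regulators, the list of small GTPases, actin linkers and signaling proteins, lay below 0 in 21 of 30 cases with a median of -0.06. Actn1, an actin cross-linker, was the single gene called by edgeR among the 71. Its CPM was 35.5, 33.8 and 30.5 in CTRL and 25.8, 22.8 and 20.5 in RbpjDEC, so the groups stood well apart. The log2 fold change was -0.53 (SE 0.104, 95% interval -0.76 to -0.30, edgeR quasi-likelihood, Benjamini-Hochberg adjusted p = 0.0384). Heg1, a receptor that binds the cerebral cavernous malformation complex, followed at -0.41 (adjusted p = 0.0684) and Rhoa, a GTPase of contractile actin, at -0.29 (adjusted p = 0.0751), both in the same edgeR test, and DESeq2 called both (adjusted p = 0.00265 and 0.0126). Smooth muscle expresses Actn1 too, and mural genes were lower in the same libraries. All 10 tested of 11 mural genes had a log2 fold change below 0 and 3 were called lower (Acta2, Myh11 and Rgs5), against 0.559% of all tested genes, with a median log2 fold change of -1.04 and none of the 11 at 0 in all libraries. Their summed CPM of 247.9 to 293.6 in CTRL and 188.6 to 224.4 in RbpjDEC was mostly Mylk, whose log2 fold change was -0.15. Without Mylk the sums were 86.8 to 113.8 CPM in CTRL and 35.9 to 57.6 in RbpjDEC. Their part in the Actn1 value was not tested.

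**Figure D5:**
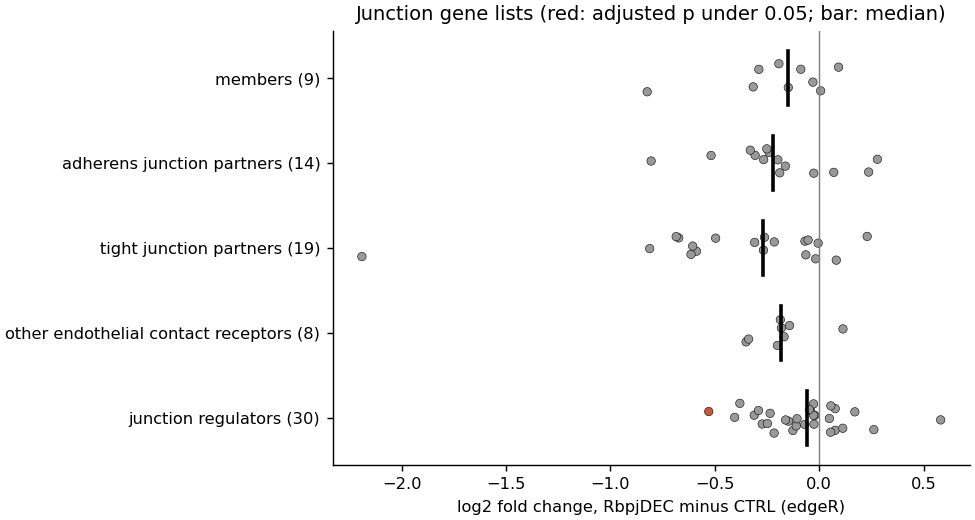
Log2 fold change (RbpjDEC minus CTRL) of each tested gene in the 9 junction genes and in 4 lists of their partners, with the number of genes in brackets, the median as a bar and genes at an adjusted p under 0.05 in red. All medians lie below 0, from -0.06 to -0.27, and Actn1 at -0.53 is the only red point.

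Other cell types that the sort could hold were read in the same way. Fibroblast genes summed to 4.69 to 7.33 CPM in CTRL and 1.61 to 2.92 in RbpjDEC, without overlap, with Pdgfra and Col1a2 most abundant and Dpt at 0. All 3 tested of these 8 genes had a log2 fold change below 0. Pdgfra was called lower at -1.67 (edgeR quasi-likelihood, Benjamini-Hochberg adjusted p = 0.0468), where 0.559% of all tested genes were called lower. Leukocyte genes summed to 3.55 to 12.0 CPM in CTRL and 1.92 to 4.52 in RbpjDEC, with Ptprc and Csf1r most abundant and Cd3e at 0. Podocyte genes were carried by Podxl, which endothelium also expresses, at 2984 to 3378 CPM in CTRL and 2399 to 2680 in RbpjDEC, with Synpo next. Lymphatic endothelial genes summed to 620.0 to 713.3 CPM in CTRL and 645.4 to 681.7 in RbpjDEC and were carried by Flt4. Next was Reln in CTRL, with a mean of 15.1 CPM, and Prox1 in RbpjDEC, with 10.1. The sum hides lower genes of small CPM: Ccl21a, Lyve1 and Reln had log2 fold changes of -1.47, -1.19 and -0.72. Prox1 and Flt4 were at 0.17 and 0.01. Of these 5, all that were tested, 3 were lower at an unadjusted p under 0.05 in edgeR and 0 were called lower. Over all tested genes the shares were 8.62% and 0.559%. Against these sums the 9 junction genes together made up 3599 to 3963 CPM in CTRL and 3305 to 3811 in RbpjDEC, with overlap.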

How the data were processed

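Per the labels and the study's methods, libraries were made from 2 ng of total RNA with a stranded total RNA kit and sequenced in 1 pooled run. According to the submitters' processing notes, the authors trimmed reads with Trim Galore (version 0.6.4), aligned them with STAR (version 2.6.1d) to GRCm38.p6 and counted them per gene with featureCounts of Subread (version 1.6.4). The deposited values are raw counts per gene and library, without normalization, and the strand setting is not given in the sources used here.

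From these counts, edgeR (version 4.0.16, R 4.3.3) gave TMM factors, filtered genes with filterByExpr and tested genotype with robust quasi-likelihood fits and Benjamini-Hochberg adjustment over 18438 genes at a threshold of 0.05. CPM used the effective library sizes and log2 CPM a prior count of 2. Exon lengths and coordinates came from GENCODE M21 on GRCm38, matched by gene ID for 55141 of 55401 genes. DESeq2 (version 1.42.0) and limma (version 3.58.1) served as alternatives, beside other scalings, filters, a replicate block and the omission of each library. Scripts were tested on simulated data. With the spread drawn from gene-wise dispersions, false calls took a larger share of the calls than the threshold names, so calls with an adjusted p close to the threshold are less certain than it states. Whether same-numbered libraries deviate together was checked as well. Ocln rested on 14 to 76 counts per library.

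Members and lists were chosen with earlier results of these data known. Named genes were all members, Rbpj, in each of the 4 junction lists the called genes and the 3 with the smallest p, neighbours within 300 kb of Cdh5, the other claudins, the 5 nearest profiles of Cdh5 and of the member with the smallest p, and the 2 most abundant genes of each cell type list. Pals1 was read under its table symbol Mpp5, and no row carried the symbol Cd99. No per-library column was left unmapped. P-values weigh a difference between genotypes against the spread between these mice. The spread of each gene is estimated in part from the other genes.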

Additional observations from a re-analysis of the deposited data

How the results depend on the processing

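Of the 135 values that 15 alternatives gave for the 9 junction genes, 125 kept their direction and side of the threshold. Jam2 passed the threshold in 1, the edgeR fit with no filter on low counts, which called 1 of the 9 genes, 16 of the partners (14 lower) and 1436 genes in all. The direction turned in 9: Cldn15 at 0.029 and Tjp1 at 0.091 with pan-endothelial scaling (chosen after the values were seen), Tjp1 at 0.013 with library size alone, and, without 1 library each, Tjp1 in 2 cases (range -0.083 to 0.031), Esam in 3 (range -0.022 to 0.038) and Jam3 in 1 (range -0.067 to 0.229). The cause was not tested.

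Of the partners, 1 was called in the reported fit, 13 by DESeq2, 0 by limma voom, 0 without robust estimation and 0 with pan-endothelial scaling. Without 1 library each, 0 to 7 were called. Over all genes, 209 were called (106 higher, 103 lower), against 944 by DESeq2, 321 with pan-endothelial scaling (266 higher, 55 lower) and 21 to 700 without 1 library each. With library size alone, 159 were higher and 82 lower. Same-numbered libraries did not deviate together, with correlations of 0.023, 0.009 and 0.005, and each CTRL library correlated more with a differently numbered RbpjDEC library. The replicate block called 2 partners, Actn1 and Heg1, and 344 genes in all, and 0 of the 9 junction genes. Of the 9 genes, Ocln had the lowest counts, 14 to 76 per library.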
